A study of Mus musculus with 4 samples.

Results

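The 3265 regions described here are stretches of chromatin far from genes that were called open in NMuMG cells after 2 h of TGFβ and were called in neither of the other lists of the series. NMuMG is an epithelial cell line established from the mammary gland of the mouse. The regions were chosen by the calls themselves: a region of the TGFβ list that overlapped no region of the vehicle list and none of the 10 min list by 1 bp or more, that lay clear of every annotated transcription start site (TSS) ± 1000 bp, and whose centre was outside every protein-coding gene and more than 50 kb from any protein-coding TSS. Of the 38532 regions of the TGFβ list, 13819 (35.9%) were in neither other list. Of the 6473 regions of the list that met the conditions on position, 3265 were in neither other list and 3208 were also in at least one of them. Absence from the other lists chose the regions, so it is a description and is not tested here. The 3265 are called TGFβ-only remote regions below and the 3208 shared remote regions.

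Chromatin accessibility was measured by ATAC-seq, in which the Tn5 transposase cuts and tags DNA that is free of nucleosomes. The vehicle and TGFβ samples of the 2 h experiment were kept in complete medium with serum, and TGFβ1 was given at 5 ng per ml. In the 10 min experiment, vehicle or TGFβ1 at 5 ng per ml was added to cells that had been without serum and insulin for 6 h. The labels attach the same single list to the vehicle and the TGFβ sample of the 10 min experiment. A label field of that TGFβ sample gives 2 h where its title gives 10 min. The list itself is named after TGFβ at 10 min. Since the labels do not settle it, the list is read as neither condition. It serves to choose regions and to describe what lies around them. If it holds peaks of TGFβ alone, 982 shared remote regions, in it but not in the vehicle list, were also called only with TGFβ.

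The 4 samples came with 3 lists and no replicate lists, so no test between conditions was possible. The lists carry no read counts, so the reads behind a single call are not known. The study's reporting summary gives library totals, in which the TGFβ library has somewhat fewer mapped and filtered reads than the vehicle library in complete medium, and the 10 min libraries have fewer still. The intervals given below are 95% intervals that cover the counting of regions alone. Neighbouring regions are not independent, and differences in quality between single libraries cannot be told apart from the treatment. A region covered the TSS of 16, 19 and 16 of 35 epithelial junction and keratin genes in the vehicle, TGFβ and 10 min list, or 45.7%, 54.3% and 45.7%. Over all protein-coding genes the shares were 41.1%, 47.8% and 46.4%, so this list does not set the cells apart as epithelial. Krt8, Krt18 and Ocln had one in every list, whereas Cdh1 had one only in the 10 min list and Epcam in none.

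Enhancers are regulatory DNA elements that can act on promoters over long distances, and those in gene-poor intervals are often assigned to the nearest gene for want of a better guide. TGFβ receptors phosphorylate SMAD2 and SMAD3, which enter the nucleus with SMAD4 and bind short GTCT or CAGAC elements. AP-1, a dimer of JUN and FOS family proteins, binds TGACTCA and is a common partner of SMAD proteins at enhancers. CTCF binds a long motif at insulators and loop anchors. A match to such letters is a property of the sequence and says nothing of occupancy by the factor.

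Sequences are shown for 5 regions because, among the TGFβ-only remote regions whose score was at its cap, they held the most AP-1 and SMAD letters within 200 bp of their centre. Each run is the central 300 bp on the plus strand of build mm9. Capitals mark AP-1 letters (TGACTCA or its complement TGAGTCA) and SMAD letters (CAGACA or its complement TGTCTG, or GTCTAGAC), and other bases are in lower case.
chr4:89196819-89197118, 149 kb from Dmrta1: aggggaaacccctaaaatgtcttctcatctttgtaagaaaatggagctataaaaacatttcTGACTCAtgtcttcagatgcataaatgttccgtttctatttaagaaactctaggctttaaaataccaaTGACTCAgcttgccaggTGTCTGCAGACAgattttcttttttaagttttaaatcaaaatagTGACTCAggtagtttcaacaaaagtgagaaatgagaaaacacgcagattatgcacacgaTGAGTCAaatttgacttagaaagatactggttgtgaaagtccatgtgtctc
chr12:96837529-96837828, 92.8 kb from Flrt2: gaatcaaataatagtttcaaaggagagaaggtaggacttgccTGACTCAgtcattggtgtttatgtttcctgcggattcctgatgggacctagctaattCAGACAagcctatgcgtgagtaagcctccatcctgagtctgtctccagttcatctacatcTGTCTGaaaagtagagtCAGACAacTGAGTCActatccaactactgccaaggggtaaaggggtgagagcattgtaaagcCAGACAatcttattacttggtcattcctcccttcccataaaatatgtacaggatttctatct
chr1:72146088-72146387, 95.4 kb from Gm5528: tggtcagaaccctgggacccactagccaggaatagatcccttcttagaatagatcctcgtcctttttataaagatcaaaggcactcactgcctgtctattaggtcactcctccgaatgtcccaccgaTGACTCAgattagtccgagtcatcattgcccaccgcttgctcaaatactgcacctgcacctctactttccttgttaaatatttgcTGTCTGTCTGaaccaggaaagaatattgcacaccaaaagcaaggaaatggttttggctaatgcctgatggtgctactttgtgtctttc
chr3:39168407-39168706, 379 kb from Fat4: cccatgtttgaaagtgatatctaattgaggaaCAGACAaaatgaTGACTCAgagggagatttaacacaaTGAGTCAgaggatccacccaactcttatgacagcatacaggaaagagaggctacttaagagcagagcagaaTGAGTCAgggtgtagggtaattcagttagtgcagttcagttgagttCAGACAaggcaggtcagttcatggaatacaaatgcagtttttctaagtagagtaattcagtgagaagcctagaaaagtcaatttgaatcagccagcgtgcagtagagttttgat
chr5:70747112-70747411, 487 kb from Gabrg1: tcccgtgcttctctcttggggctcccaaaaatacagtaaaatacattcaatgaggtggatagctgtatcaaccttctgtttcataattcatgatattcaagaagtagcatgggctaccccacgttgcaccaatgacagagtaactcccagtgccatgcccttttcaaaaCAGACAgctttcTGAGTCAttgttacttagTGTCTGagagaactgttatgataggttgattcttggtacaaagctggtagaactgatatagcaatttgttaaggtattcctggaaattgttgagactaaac
The region nearest to Dmrta1 held 4 AP-1 and 2 SMAD matches in its 400 bp window, with 3 of the AP-1 matches inside the central 200 bp. The Flrt2 region held 2 and 4, the Gm5528 region 1 and 5, the Fat4 region 3 and 2, and the Gabrg1 region 2 and 2. Of these, 3 SMAD matches of the Gm5528 region and 1 AP-1 match of the Gabrg1 region lie outside the stretch shown. These regions were 185 to 587 bp wide and lay 92.8 to 487 kb from a protein-coding TSS. The Dmrta1 region had its nearest vehicle region only 1.72 kb away. That gap was 104 kb for the Flrt2 region, 126 kb for Gm5528, 784 kb for Fat4 and 763 kb for Gabrg1.

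The 5 regions farthest from any protein-coding TSS lay 1549 to 2200 kb away. The farthest was nearest to Pcdh17, a protocadherin gene, and had its nearest vehicle region 178 kb away. The second was nearest to Pcdh9, another protocadherin gene, and had a vehicle region at 69.6 kb. Another, nearest to Celf4, was 1993 kb from the nearest vehicle region. The remaining pair, both nearest to Cdc73, had their nearest vehicle region 538 and 543 kb away. Sequences follow for 4 of the 5, with the same capitals, because no gene lies near them and their sequence is the main thing known of them.
chr14:82643250-82643449, 2200 kb from Pcdh17: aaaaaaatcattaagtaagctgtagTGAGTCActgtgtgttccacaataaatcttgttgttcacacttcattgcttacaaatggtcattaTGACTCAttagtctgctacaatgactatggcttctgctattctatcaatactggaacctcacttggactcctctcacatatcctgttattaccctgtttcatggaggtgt
chr14:92318450-92318749, 1967 kb from Pcdh9: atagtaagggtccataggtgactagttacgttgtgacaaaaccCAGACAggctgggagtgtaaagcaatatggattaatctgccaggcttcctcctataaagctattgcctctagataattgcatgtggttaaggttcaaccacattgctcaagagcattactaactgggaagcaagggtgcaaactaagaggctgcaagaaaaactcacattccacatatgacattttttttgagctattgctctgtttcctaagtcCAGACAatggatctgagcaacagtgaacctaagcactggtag
chr1:143899485-143899684, 1554 kb from Cdc73: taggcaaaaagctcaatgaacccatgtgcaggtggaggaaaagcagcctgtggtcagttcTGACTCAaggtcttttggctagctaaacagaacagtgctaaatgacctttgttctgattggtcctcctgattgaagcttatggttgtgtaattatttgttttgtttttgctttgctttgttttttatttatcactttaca
chr1:143904946-143905145, 1549 kb from Cdc73: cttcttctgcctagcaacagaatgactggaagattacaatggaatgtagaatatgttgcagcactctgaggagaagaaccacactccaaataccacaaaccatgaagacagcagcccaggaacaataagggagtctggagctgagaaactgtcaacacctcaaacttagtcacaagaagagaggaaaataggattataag
The Celf4 region, whose sequence is not reported here, held 3 AP-1 and 2 SMAD matches. The Pcdh17 region held 2 AP-1 matches, the Pcdh9 region held 2 SMAD matches and no AP-1 match, and the Cdc73 regions held 1 AP-1 match each in their 400 bp windows. For the Cdc73 region at 1549 kb that match lies outside the stretch shown.

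The TGFβ-only remote regions were narrow. Their median width was 270 bp, with quartiles of 211 and 363 bp and a range from 150 to 1809 bp, and together they covered 1018 kb. Of them, 2142 (65.6%) had a single summit and 3167 of 3265 a single deposited interval. Shared remote regions were wider, at a median of 430 bp, and 31.9% had a single summit. The authors' score, a scaled irreproducible discovery rate (IDR) that runs from 540 to a cap of 1000, had a median of 717 among TGFβ-only remote regions, and 347 of them (10.6%) were at the cap. Among shared remote regions 57.5% were at the cap. TGFβ-only intergenic regions within 50 kb of a TSS were much like the remote ones, with a median width of 265 bp and 9.72% at the cap. Width and score come from the list that chose the regions and are given as a description.

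The 5 widest regions were 1482 to 1809 bp wide and merged 3 to 5 summits. They were nearest to Rnf152, Tmem2, Mettl15, Myc and Egfem1. None of these 5 had an AP-1 match within 200 bp of its centre, and 1 of them, the Rnf152 region, had a SMAD match. That window leaves out most of each of these 5 regions. Of the 286 regions of 500 bp or more, 43.7% had an AP-1 match in it.

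At the limit of 50 kb, the first region inside was 504 bp wide, scored 1000 and lay 50.004 kb from the TSS of Slc24a3. The next was 233 bp wide, scored 708 and lay 50.015 kb from that of Hrh1. The first outside was 284 bp wide, scored 810 and lay 49.998 kb from the TSS of Eya1, and the next was 207 bp wide, scored 587 and lay 49.956 kb from that of Tmem182. At the limit of overlap, 11 of the 3265 regions lay within 1 kb of a vehicle region, and 32 overlapped an interval of another list that was under 150 bp and had been discarded.

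The territory open to the rule was the assembled sequence outside protein-coding genes and more than 50 kb from their start sites. It came to 981 Mb or 38.4% of chromosomes 1 to 19 and X. It held 3.33 TGFβ-only remote regions per Mb (interval 3.21 to 3.44) and 3.27 shared remote regions per Mb (3.16 to 3.38). TGFβ-only regions were more frequent nearer to genes, with 6.75 per Mb of intergenic sequence within 50 kb (6.54 to 6.98) and 6.28 per Mb inside protein-coding genes (6.12 to 6.45).

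The frequency of TGFβ-only remote regions fell with distance from genes. It was 5.54 per Mb between 50 and 100 kb (1208 regions), 4.28 per Mb between 100 and 200 kb (1015 regions) and 2.52 per Mb between 200 and 500 kb (769 regions). Farther out it was 1.504 per Mb up to 1000 kb (239 regions) and 0.550 per Mb beyond (34 regions, interval 0.381 to 0.769). Shared remote regions also fell, from 6.15 to 0.680 per Mb, but not in step. They were the more frequent class between 50 and 100 kb and the less frequent one between 200 and 500 kb, at 2.17 per Mb. As a share of all remote regions of the TGFβ list, TGFβ-only regions made up 47.4% between 50 and 100 kb (interval 45.5 to 49.3%) and 53.7% between 200 and 500 kb (51.1 to 56.3%). Beyond 1000 kb the share was 44.7% with a wide interval of 34.1 to 55.9%. The median distance was 134 kb, with quartiles of 77.9 and 247 kb.

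**Figure D1:**
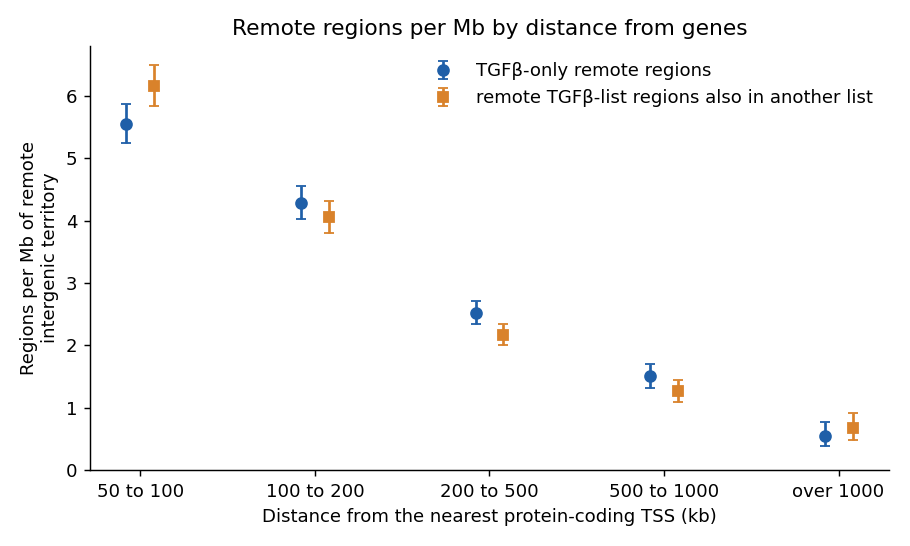
Regions per Mb of remote intergenic territory (vertical axis) in 5 bins of distance from the nearest protein-coding TSS in kb (horizontal axis). Circles are TGFβ-only remote regions, squares are remote TGFβ-list regions also in another list, and bars are exact 95% Poisson intervals. TGFβ-only regions go from 5.54 per Mb in the nearest bin to 0.550 in the farthest, and the other class declines as well.

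Frequencies also differed between chromosomes. Chromosome X had the fewest TGFβ-only remote regions per Mb of its remote territory, 1.33 (102 regions, interval 1.08 to 1.61), followed by chromosome 14 with 1.79 (88 regions, 1.43 to 2.20). Chromosome 19 had the most, 5.59 per Mb (86 regions, 4.47 to 6.90), with chromosome 15 next at 5.22 (222 regions, 4.56 to 5.95). The intervals of the lowest pair and the highest pair do not overlap, but they treat regions as independent, which neighbouring regions are not. Chromosomes were not matched for the distance of their territory from genes. Shared remote regions had 1.17 per Mb on chromosome X, 2.38 on chromosome 14, 4.61 on chromosome 19 and 4.35 on chromosome 15.

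Few of the regions lay in annotated noncoding genes. A noncoding gene body held the centre of 141 (4.32%, interval 3.67 to 5.07%), against 3.005% of the territory and 5.52% of shared remote regions. Long intergenic noncoding RNA genes accounted for 80 of these regions (2.45%, 1.97 to 3.04%), above the 1.09% of the territory, and for 3.27% of shared remote regions. An annotated exon was overlapped by 15 of the regions (0.459%) and by 20 of the shared remote regions (0.623%). Of single positions of the territory, 0.113% met an exon, which is not comparable because a whole region spans many positions. The nearest protein-coding TSS had the region on its upstream side in 55.6% (53.9 to 57.3%), close to the 53.2% of the territory. Only 8 of the 3265 (0.245%) had a near-identical copy elsewhere in the genome, by at least 80% of their 24-base words occurring more than once, and none resembled mitochondrial DNA. Of windows spaced evenly over the same territory, 13.8% had such a copy. The windows were not limited to sequence in which a region could have been called, so this is a description. The part of such copies in the frequencies per Mb was not tested.

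A number of the regions stood in groups. Another region of the TGFβ list lay within 10 kb of 1059 of the 3265 (32.4%, interval 30.9 to 34.1%), and within 50 kb of 73.1%. The share within 10 kb was 42.4% for shared remote regions, 48.9% for TGFβ-only intergenic regions closer to genes and 46.1% for TGFβ-only regions inside genes. The median gap to the nearest vehicle region was 53.8 kb, with quartiles of 17.4 and 126 kb. When regions less than 50 kb apart were joined into chains, 1661 (50.9%) stood alone and 792 (24.3%) belonged to 214 chains of 3 or more.

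The longest chain lay upstream of Thbs1 (ENSMUSG00000040152.8), the gene of thrombospondin-1, a secreted glycoprotein that can activate latent TGFβ. It held 10 TGFβ-only remote regions between chr2:117707929-117864886 (mm9), a span of 157 kb that lies 73.0 to 230 kb before the gene. The 10 regions were 181 to 522 bp wide and scored 616 to 1000. The vehicle list had no region in that span and the 10 min list had 1. Of the 10 regions, 6 held an AP-1 match, 6 a SMAD match, 4 both and 2 neither. The chain was picked for its length, so these counts are a description. The region at the score cap, 112 kb before the gene, is shown because it joins an AP-1 match with the full palindromic SMAD letters.
chr2:117825483-117825782, plus strand: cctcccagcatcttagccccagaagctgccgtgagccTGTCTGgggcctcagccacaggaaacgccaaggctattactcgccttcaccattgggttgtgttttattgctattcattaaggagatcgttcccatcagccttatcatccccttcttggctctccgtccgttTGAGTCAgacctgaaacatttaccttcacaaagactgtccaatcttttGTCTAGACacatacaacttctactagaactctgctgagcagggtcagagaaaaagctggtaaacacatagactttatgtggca
It holds 1 AP-1 match and 2 SMAD matches, of which the last in the run is GTCTAGAC.

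Chains of 8 lay near Gadd45g, which encodes a growth arrest and DNA damage response protein, and near Asap1, which encodes an activator of ARF GTPases. The Gadd45g chain spanned 105 kb with 2 vehicle regions inside it, and the Asap1 chain 150 kb with 1. Chains of 7 lay near Tnfaip3 and Olig3 (153 kb), near Pcgf5 and Ankrd1 (148 kb), and between Cdkn2b and Dmrta1 (158 kb). Tnfaip3 encodes A20, an inhibitor of NF-κB signalling, and Ankrd1 is a well-known target of YAP. Cdkn2b encodes p15, a cyclin-dependent kinase inhibitor that mediates growth arrest by TGFβ. The span of the Cdkn2b chain also held 7 regions of the vehicle list and 10 of the list at 10 min, whereas the Thbs1 span held none of the vehicle list. A chain of 6 lay between Ctgf and Moxd1, with 2 vehicle regions inside it. Ctgf is the gene of connective tissue growth factor, a classical target of TGFβ and YAP. Of its 6 regions, 4 held a SMAD match and 1 an AP-1 match. Chains of 6 near Gm5528 and near Tars contained no region of either other list.

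**Figure D2:**
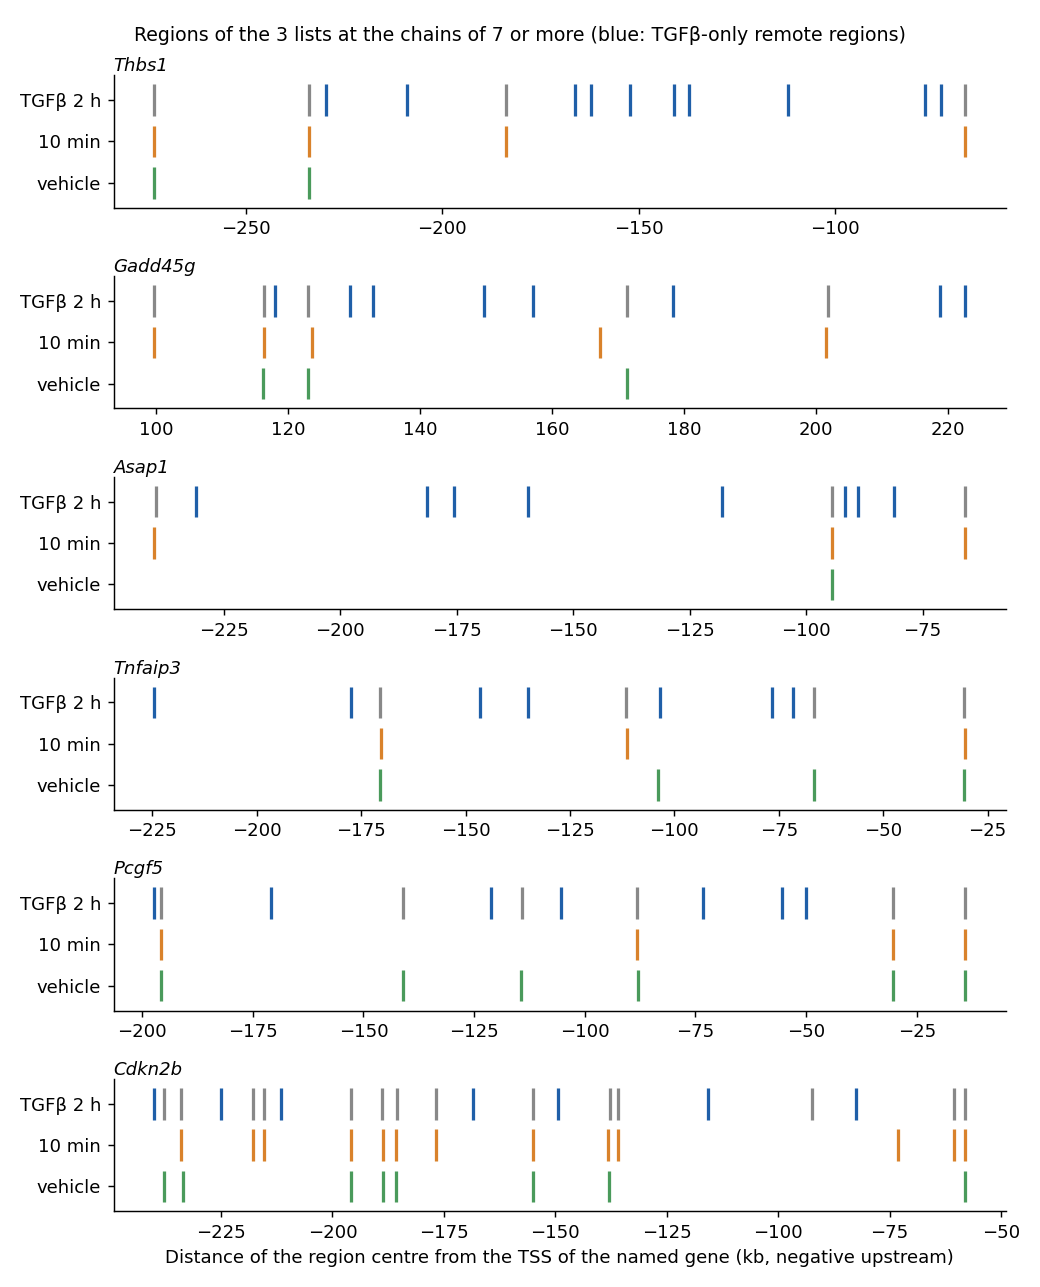
Regions of the vehicle, 10 min and TGFβ lists at the 6 chains of 7 or more, each panel named after the nearest gene of most of its regions, by distance of the region centre from the TSS of that gene in kb (negative upstream). Each vertical bar is 1 region, blue bars are TGFβ-only remote regions and grey bars other regions of the TGFβ list. The Thbs1 panel has 10 blue bars and no vehicle bar among them, while the Cdkn2b panel has 7 blue bars with 7 vehicle bars among them.

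Protein-coding genes were then ranked by how many of the regions were nearest to them. Nearness does not show that a region acts on a gene. Of 5389 genes with any remote territory, 1681 (31.2%) were the nearest gene of at least 1 TGFβ-only remote region. Of these, 985 had exactly 1, 131 had 5 or more, and 12 had 10 or more. The 131 genes accounted for 850 of the regions (26.0%).

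Myc, the gene of a growth-promoting transcription factor on chromosome 15, had the most, with 15 regions 85.4 to 582 kb from its TSS and 17 shared remote regions. Next were Gsdmc, a gasdermin gene, and Tbl1xr1, a corepressor component, with 12 each, and Jmjd1c, a histone demethylase family member, with 11. Genes with 10 included Atxn7l3b, Btbd3, Cdh6, Gadd45g, Khdrbs3 and Klf6. Cdh6 is a cadherin gene and Klf6 a zinc finger transcription factor gene. Among these, the territory ranged from 290 kb for Gadd45g to 1789 kb for Tbl1xr1, and Gadd45g had the highest frequency, 34.5 per Mb. A large territory raises the count, since 12.6% of genes with under 50 kb had a region, as did 327 of the 545 with over 500 kb. By frequency, among genes with at least 5 regions, Syf2, a splicing factor gene, led with 5 regions in 45 kb, followed by Ranbp3l with 5 in 78 kb and Ifne, the gene of interferon epsilon, with 5 in 79 kb. The next were Pcgf5, Slc5a7, Mrpl14, Nck2, Tnfrsf11b, Gm5528 and Asap1, at 36.4 to 48.5 per Mb. Nck2 encodes an adaptor of receptor tyrosine kinases, and 3 of its 5 regions were at the score cap.

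Gene lists for the pathway and for the epithelial to mesenchymal transition (EMT) are read beside 31.2% of all genes with territory and 3.33 regions per Mb. These figures are not matched for the size of territory. The share of genes with a region was 12.6% under 50 kb, 31.8% for 50 to 100 kb and 44.6% for 100 to 200 kb. The median territory of the ligand, receptor and Smad genes was 133 kb. Of the TGFβ ligands, receptors and Smads, 9 of 15 genes with remote territory were nearest to at least 1 region, at 8.14 per Mb over the list. They included Acvr2a and Tgfbr2, type II receptor genes of activins and of TGFβ, with 9 and 6 regions, and the ligand genes Bmp2 and Inhba with 6 each. Smad1, which transmits BMP signals, had 3 in 70 kb. Of TGFβ feedback and immediate target genes, 7 of 17 had a region, at 10.4 per Mb, among them Bmper with 7, Cdkn2b with 4, and Ctgf, Id2 and Nog with 3 each. Bmper and Nog encode extracellular modulators of BMP. EMT transcription factor genes had 9 of 18 and 8.78 per Mb. Zeb2, a repressor of E-cadherin, had 10 regions up to 1190 kb away, Runx1 and Sox4 had 7, and Foxq1, Sox11 and Sox9 had 5. Matrix and mesenchymal genes had 14 of 20 and 6.54 per Mb, led by Thbs1 with 10 and Tnc, the tenascin C gene, with 6. In the order given, shared remote regions of these lists numbered 39, 25, 44 and 21, beside 38, 23, 42 and 35 TGFβ-only ones. Frequencies above 3.33 per Mb near pathway and EMT factor genes were therefore not particular to TGFβ-only regions. The median territory was 71 kb for feedback and immediate target genes and 98 kb for EMT factor genes. All genes with 50 to 100 kb of territory had 6.31 per Mb. The median frequency per gene was 7.61 per Mb for ligands, receptors and Smads, 0 for feedback genes and 2.33 for EMT factors. Over all genes with territory that median was 0. A comparison at equal territory was not tested.

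Genes of AP-1 and related factors had 5 of 11 and 11.1 per Mb, with 7 regions nearest to Maf and 4 to Jun, of which 2 were at the score cap. Genes of ETS factors had 4 of 11 and 5.05 per Mb, and YAP and TEAD factors and targets 4 of 8 and 7.23 per Mb. Epithelial junction and keratin genes had 3 of 9, at 13.0 per Mb of a territory of only 0.463 Mb, through Ctnna1, the α-catenin gene, with 4 regions and Epcam and Grhl2 with 1 each. Developmental transcription factor genes had 27 of 60 and 3.60 per Mb, near the figure for all territory, led by Nr2f2 with 9 and Lmo4 with 8. Neuronal adhesion genes of gene deserts had 33 of 53 and the lowest frequency, 1.75 per Mb, over a territory of 58.4 Mb. Their median territory was 909 kb, and of all genes with over 500 kb a similar share had a region, 327 of 545. The count of neuronal genes was therefore not high for their territory. Small territories had a higher frequency in general: 7.51 per Mb for genes with under 50 kb, 6.31 for 50 to 100 kb, 5.33 for 100 to 200 kb and 1.94 for over 500 kb. Shared remote regions numbered 10 beside 14 TGFβ-only ones for AP-1 and related genes, and 6 beside 9 for ETS genes. They were 20 beside 12 for YAP and TEAD genes, and 15 beside 6 for epithelial genes. For developmental factors they were 71 beside 76, and for neuronal adhesion genes 59 beside 102. The lists overlap in part, and no test of them was made.

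Sequence was not used to choose the regions. Within 200 bp of their centres, AP-1 letters occurred in 43.7% of TGFβ-only remote regions (interval 42.0 to 45.4%). In windows of the same length spaced 10 kb apart over the same territory the share was 5.74%, and 6.12% when these were weighted to the GC content of the regions. Among windows without a copy elsewhere it was 6.61%. SMAD letters occurred in 44.2% (42.5 to 45.9%), against 28.4% of the windows and 32.1% after weighting by GC. As a control for composition the letters were read in reverse order without complementing them. Reversed AP-1 letters occurred in 11.2% of the regions and 5.71% of windows, and reversed SMAD letters in 29.4% and 22.6%. Reversed letters can share bases with a true match. Of all 38532 regions of the TGFβ list, 32.0% had AP-1 and 34.99% SMAD letters.

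The matches were concentrated at the region centres. AP-1 letters had 2.72 matches per kb within 50 bp of the centre and 0.174 per kb at 800 to 1000 bp, a ratio of 15.6. Shared remote regions had a similar ratio of 15.4, and TGFβ-only intergenic regions within 50 kb had 12.5. SMAD letters had 1.91 matches per kb within 50 bp and 1.13 at 800 to 1000 bp, a ratio of 1.68. In TGFβ-only intergenic regions within 50 kb the SMAD ratio was 1.59, and in shared remote regions it was 1.15. Reversed SMAD letters had a ratio of 1.16 in the TGFβ-only remote regions and 1.06 in the shared ones. A central rise of SMAD letters was seen in both TGFβ-only classes and was near the level of the reversed letters in shared remote regions.

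**Figure D3:**
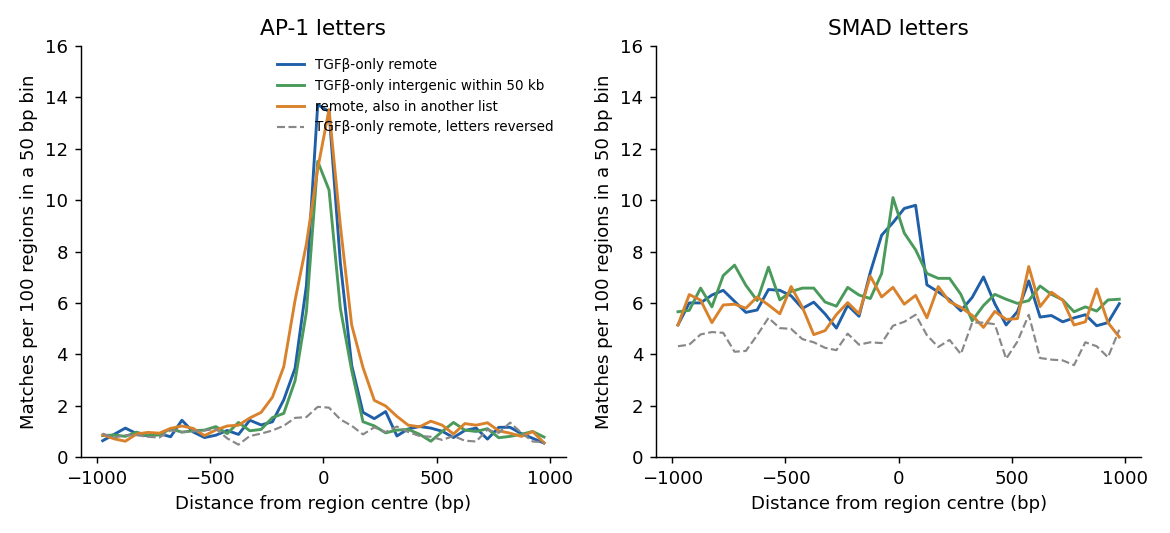
Matches per 100 regions in 50 bp bins (vertical axis) by distance from the region centre in bp (horizontal axis), for AP-1 letters on the left and SMAD letters on the right. Lines are TGFβ-only remote regions, TGFβ-only intergenic regions within 50 kb and remote regions also in another list, and the dashed line is the reversed letters in TGFβ-only remote regions. AP-1 peaks at the centre in all 3 classes, with 15.6 times the flanking frequency in TGFβ-only remote regions, while SMAD rises by a ratio of 1.68 there and by 1.15 in regions also in another list.

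Set beside TGFβ-only intergenic regions within 50 kb of genes, the remote ones differed in AP-1 and not detectably in SMAD. AP-1 letters were in 36.6% of the nearer regions, 7.13 percentage points lower (interval of the difference 4.82 to 9.43), and the remote share was the higher one on 18 of 20 chromosomes. The SMAD difference was 1.14 points (-1.19 to 3.48). The AP-1 difference was positive in each of 4 bins of GC content (4.78 to 7.59 points) and in each of 4 bins of width (5.34 to 7.52 points). Its interval included 0 under 40% GC (-1.06 to 11.1) and at 500 bp or more (-0.314 to 15.2). The AP-1 difference was also seen for scores under 700 and for scores from 700 to just below the cap, at 6.59 and 8.95 points. It was not seen at the cap, where it was -2.86 points (-10.1 to 4.41). Within the remote class the AP-1 share was 43.1% from 50 to 100 kb, 42.3% up to 200 kb and 44.2% up to 500 kb. It was 50.2% between 500 and 1000 kb (239 regions, interval 43.9 to 56.5%) and 52.9% beyond (34 regions, 36.7 to 68.5%). Shared remote regions also had 50.2% between 500 and 1000 kb.

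Set beside shared remote regions, the TGFβ-only ones had SMAD letters more often. The shares were 44.2% and 37.6%, a difference of 6.63 points (interval 4.24 to 9.02), with the TGFβ-only share higher on 18 of 20 chromosomes. The difference was positive in all 4 bins of width (8.16 to 11.2 points), of GC content (4.15 to 9.17 points) and of distance from genes (4.18 to 18.6 points). Among these bins the interval included 0 only at 50% GC or more (-1.38 to 9.66). The difference was larger at higher scores. It was 8.90 points for scores under 700, 12.0 points from 700 to below the cap and 17.98 points at the cap (12.3 to 23.5), where 58.8% of 347 TGFβ-only and 40.8% of 1845 shared remote regions held SMAD letters. Of the shared remote regions, those also in both other lists had SMAD letters in 38.3%, those in the 10 min list but not the vehicle list in 35.9%, and those in the vehicle list but not the 10 min list in 38.04%. Reversed SMAD letters were also more frequent in TGFβ-only remote regions, by 2.72 points (0.529 to 4.90).

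For AP-1 letters the direction depended on how regions were divided. Over all scores the TGFβ-only remote regions had the lower share, 43.7% against 47.8%, a difference of -4.02 points (-6.44 to -1.59). Within each range of score their share was the higher one: by 3.43 points under 700 (-2.37 to 8.89), by 8.94 points from 700 to below the cap (4.95 to 12.9) and by 1.56 points at the cap (-4.16 to 7.17). Shared remote regions were at the cap more often, as given above, and at the cap AP-1 letters were in 56.2% of TGFβ-only and 54.6% of shared remote regions. By width, by GC content and by distance, their share was the higher one in only 1 of 4 bins each. The intervals that excluded 0 were all on the lower side there, with -4.22 points from 300 to under 500 bp wide, -8.23 and -5.65 points in the upper 2 bins of GC content and -7.89 points between 100 and 200 kb.

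**Figure D4:**
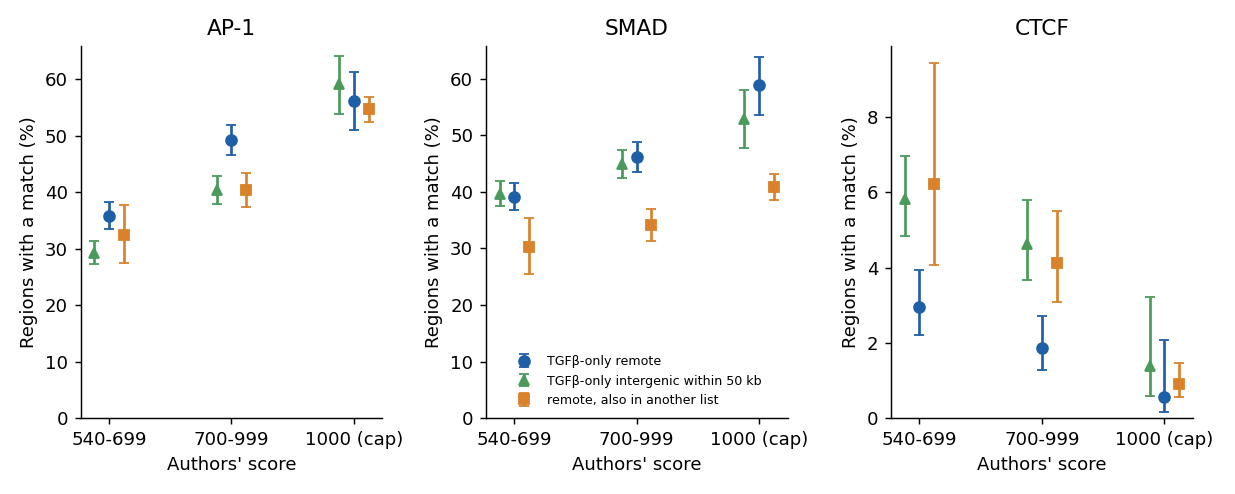
Share of regions with AP-1, SMAD or CTCF letters within 200 bp of the centre (vertical axes, %) by the authors' score in 3 ranges (horizontal axes). Circles are TGFβ-only remote regions, triangles TGFβ-only intergenic regions within 50 kb, squares remote regions also in another list, and bars are 95% Wilson intervals. For SMAD the circles lie above the squares in every range, by 17.98 points at the cap.

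AP-1 and SMAD letters were counted together in each region. Both were present in 631 TGFβ-only remote regions (19.3%), AP-1 alone in 797, SMAD alone in 812 and neither in 1025 (31.4%). SMAD letters were in 44.2% of the regions with and in 44.2% of those without AP-1 letters, a difference of -0.015 points that was not detectable here (-3.44 to 3.42). In regions with both, the nearest AP-1 and SMAD match had a median spacing of 70.5 bp, and 108 of the 631 (17.1%) were within 20 bp, against 14.0% in windows of the territory with both. At least 2 AP-1 matches were found in 249 regions (7.63%), against 0.239% of windows, and at least 2 SMAD matches in 441 (13.5%), against 5.49%. For AP-1 the share was 10.7% in shared remote regions, 5.66% in TGFβ-only intergenic regions within 50 kb and 5.79% in those inside genes. For SMAD it was 8.76%, 12.4% and 13.5% in the same order. Spacing within 20 bp was found in 16.7% of shared remote and 17.3% of the nearer regions with both. Close spacing was therefore not particular to the TGFβ-only remote regions.

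Among all 8155 words of 7 bases with their complements, counted in the central 200 bp and at flanks 900 bp away, TGACTCA had the largest excess. It was in 1157 TGFβ-only remote regions (35.4%) at the centre and in a mean of 111 at the flanks. The 11 words with the largest excess were TGACTCA, words that share part of it and variants of it. The first of another kind was CCAGACA, ranked 12, which extends the SMAD letters by 1 base. It was in 321 regions (9.83%) at the centre and 115.5 at the flanks. With 1 added to both counts, as for each word here, the ratio was 2.76. The ratio was 2.12 in TGFβ-only intergenic regions within 50 kb and 1.39 in shared remote regions. AACCACA, the complement of the RUNX letters TGTGGTT, ranked 16 with a ratio of 2.43. In shared remote regions its ratio was 2.72. ACATTCC, the letters bound by TEAD factors, partners of YAP, ranked 21 with a ratio of 2.65. The words were ranked on the same regions, so this is a description.

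Other motifs were rarer or differed less. TEAD letters (ACATTCC) were in 12.0% of TGFβ-only remote regions and 5.45% of GC-weighted windows, and RUNX letters in 14.7% and 8.20%. RUNX letters were less frequent than in shared remote regions, a difference of -3.91 points (-5.72 to -2.09), as were FOX letters (TGTTTAC), with -2.10 points (-3.61 to -0.600), and KLF/SP letters (GGGCGG), with -2.82 points (-3.96 to -1.69). Against TGFβ-only intergenic regions within 50 kb, the remote ones more often had AGATAAG, the letters of GATA factors, and TTGCNNAA, those of CEBP factors, by 2.08 and 3.09 points. TEAD and FOX letters were also more frequent than there, by 1.99 and 1.36 points. They less often had E-box (CAGGTG) and KLF/SP letters, with differences of -4.87 and -3.34 points. The mean GC content was 44.4% in the remote regions and 47.1% in the nearer ones, and the part of composition in these differences was not tested. ETS letters (ACCGGAAGT with 1 mismatch) were in 5.39%, against 3.32% of GC-weighted windows. CRE (TGACGTCA), GRHL (AACCNGTT), STAT (TTCCNGGAA), SRF and GRE letters did not differ from either comparison class beyond counting error. Letters of HNF1 were in 0.796% and of NFI in 2.39%, the former slightly above the nearer regions and the latter slightly below shared remote regions. Against TGFβ-only regions inside genes, AP-1 letters were more frequent by 5.24 points (3.13 to 7.35) and the SMAD difference was -0.312 points (-2.44 to 1.82). Of 20 differences against each class, not corrected for their number, the interval excluded 0 for 9 against the nearer regions, 9 against those inside genes and 7 against shared remote regions.

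**Figure D5:**
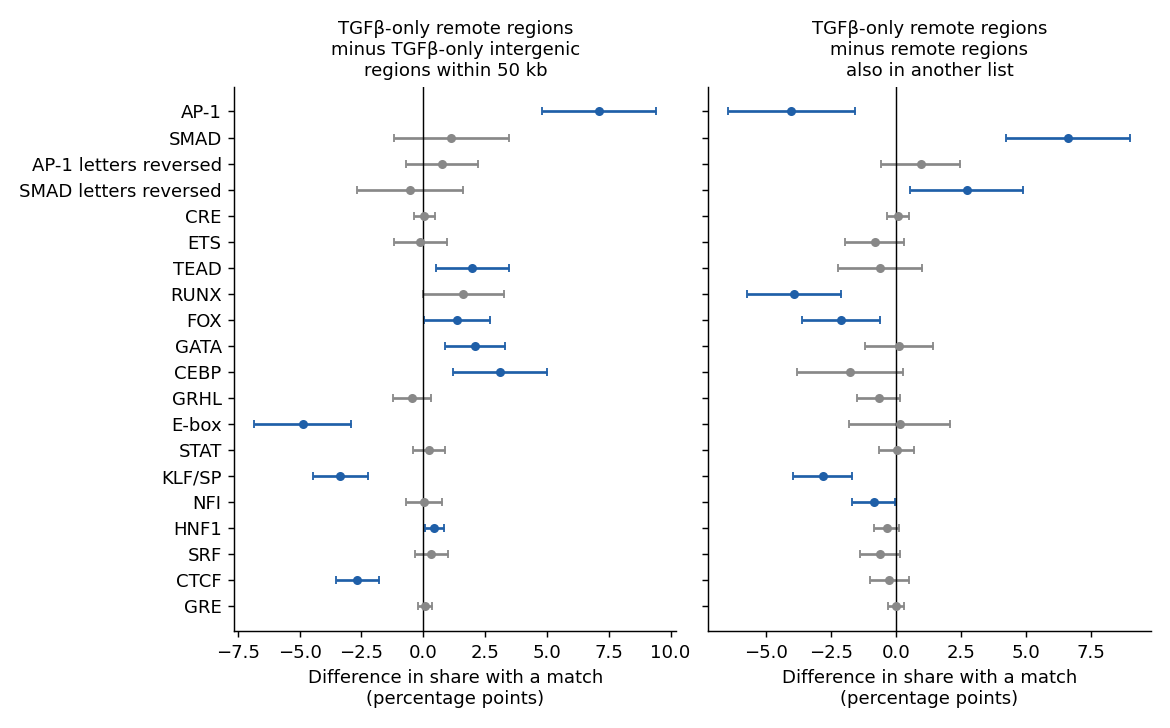
Difference in the share of regions with a match within 200 bp of the centre, in percentage points (horizontal axes), for 20 sets of letters, TGFβ-only remote regions minus TGFβ-only intergenic regions within 50 kb (left) and minus remote regions also in another list (right). Points are differences, bars 95% Newcombe intervals, and blue marks an interval that excludes 0. AP-1 is 7.13 points higher than in the nearer regions, and SMAD is 6.63 points higher than in regions also in another list.

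CTCF letters were in 2.24% of TGFβ-only remote regions, 4.90% of TGFβ-only intergenic regions within 50 kb and 2.49% of shared remote regions. The difference from the nearer regions was -2.67 points (-3.54 to -1.80), and that from shared remote regions was -0.258 points (-1.01 to 0.488). CTCF letters were most frequent in the narrowest regions. They were in 6.72% of the 670 regions of 150 bp to under 200 bp and in 0.391% of the 1023 from 300 to under 500 bp. At equal width or score the TGFβ-only remote regions had the lower share beside shared remote regions in each bin, with -8.85 points at widths under 200 bp (-15.3 to -3.67) and -3.27 points at scores under 700 (-6.55 to -0.900). At the score cap and at 500 bp or more the interval included 0. Over all regions the direction was not stable, since it turned to 0.864 points (0.0849 to 1.57) when absence from the vehicle list alone chose the regions, and also turned for peaks at or above the median score and for matches within 100 bp. In the 4 bins of GC content and the 4 of distance every interval of the difference included 0. With distance, the share fell from 3.23% between 50 and 100 kb (interval 2.37 to 4.38%) to 1.30% between 200 and 500 kb (0.708 to 2.38%).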

How the data were processed

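ATAC-seq peak lists of NMuMG cells were used: vehicle and TGFβ in complete medium with 1 list each, and 1 list that the labels give for both samples of the 10 min experiment. Per the labels and the study's methods, the authors aligned reads to mm9 with the ENCODE ATAC-seq pipeline, called peaks with MACS2 2.1.2 and kept those passing an IDR threshold. The values the authors deposited with each interval are a score, the scaled IDR, which is not comparable between lists. The lists hold 1 line per summit and no read counts. Library totals stand in the study's reporting summary, where the TGFβ library is slightly shallower than the vehicle library in complete medium, and were not used here. Depth and quality of a library can change which regions are called.

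Intervals under 150 bp were discarded and those separated by less than 1000 bp merged, which gave 19648 vehicle, 38532 TGFβ and 26732 10 min regions. Genes were those of GENCODE vM1. Matches to motif letters were counted on either strand in the 400 bp around each centre. NFI, HNF1, SRF, GRE and CTCF letters, which allow alternative bases, are given by name. Shares carry 95% Wilson intervals, differences Newcombe intervals and frequencies exact Poisson intervals, and no p-value was computed. Named regions were the 5 farthest, the 5 widest, the 5 at the score cap with the most AP-1 and SMAD matches, and those next to the 50 kb limit. Named genes were the 10 with the most regions and the 10 with the most per Mb among genes with at least 5, with up to 8 leading genes per list. Chains were ordered by their number of regions, and the Thbs1 sequence and the 7-base words were chosen after their values were seen. The regions and gene lists were chosen with earlier results of these data known. Counting scripts were tested on simulated data. Python 3.11.15, numpy 2.4.6, pandas 2.3.3, scipy 1.17.1 and matplotlib 3.10.9 were used. Alternatives for merging, width, score, overlap, distance, genes, copies and motif windows were tried.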

Additional observations from a re-analysis of the deposited data

How the results depend on the processing

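Of 120 values recomputed under alternative settings, 88 stayed within 1.5 times the reported count, inside the interval of the reported share or frequency, or, for differences, on the same side of 0 with the interval including or excluding 0 as before. The SMAD difference from shared remote regions (4.01 to 8.97 points) and the AP-1 difference from TGFβ-only intergenic regions within 50 kb (5.38 to 8.32 points) kept their direction and an interval that excluded 0 in all 12 alternatives. With intervals under 300 bp discarded there were 1550 regions, 1.58 per Mb, with AP-1 in 49.1% and SMAD in 48.6%, nearest to 981 genes, and 24.3% had another TGFβ-list region within 10 kb. With peaks at or above the median score of their list the same values were 1361, 1.39, 59.1%, 48.3%, 894 and 21.3%. Beyond 100 kb there were 2057 regions, 2.70 per Mb, nearest to 1018 genes, and 29.4% had a neighbour within 10 kb. When only touching intervals were merged the frequency was 3.63 per Mb and 39.8% had a neighbour. When a region counted as shared only if its centre lay inside another list's region, the frequency was 3.51 per Mb. With absence from the vehicle list alone it was 4.33 per Mb, SMAD was in 42.3% and 34.9% had a neighbour. Within 100 bp of the centre AP-1 was in 35.4% and SMAD in 29.6%, and within 500 bp in 51.1% and 69.1%. The SMAD difference from TGFβ-only intergenic regions within 50 kb turned to -0.924 points within 500 bp. The AP-1 difference from shared remote regions turned to 3.48 points at or above the median score (-0.496 to 7.45) and was -0.256 points within 100 bp, where its interval included 0. The CTCF difference from shared remote regions turned to 0.637 points at or above the median score, 0.864 with the vehicle list alone (0.0849 to 1.57) and 0.210 within 100 bp. Fewer regions lower counts and frequencies by construction, and wider or narrower windows raise or lower shares. The cause of the other changes was not tested. No paired analysis was possible because there were no replicate lists, and no replicate could be left out. A region absent from a list may have been below the threshold of that list.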
